A study of Mus musculus with 6 samples.

Results

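Fibroblast and non-collagen matrix genes were examined in cardiomyocytes (CMs) that overexpressed serum response factor (SRF). The 38 genes were chosen by name, as markers of fibroblasts or as genes for matrix glycoproteins, proteoglycans and matrix enzymes, and all 38 were found among the 23337 genes of the count table. Wildtype mice received at P1 either AAV9-cTNT-SRF-2A-GFP (SRF-OE) or AAV9-cTNT-GFP (GFP), at 5e8 vg per g, and both vectors used the cardiac troponin T promoter. GFP+ CMs were sorted from the digested hearts at P14, so all libraries came from transduced hearts and carried GFP. The labels list 6 libraries, but the column headed as SRF-OE replicate 1 held gene lengths (0 zeros, lowest value 20 bp), which left 2 SRF-OE libraries (replicates 2 and 3) and 3 GFP libraries (replicates 1, 2 and 3). Only a fraction of the CMs was transduced at this dose, and non-myocytes could enter the libraries only through the sort.

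The extracellular matrix is the protein and polysaccharide network around cells. In the heart most of it is made by fibroblasts, and CMs contribute to the basement membrane that encloses each of them. Fibroblasts carry receptors for collagen and for platelet-derived growth factor. They secrete fibres, the proteoglycans and glycoproteins that bind those fibres, enzymes that cross-link them and proteases that remove them.

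Total counts ranged from 14137433 to 23159631 per library. Levels are given as CPM (counts scaled to a common library size, with TMM factors), and levels of different genes are compared only after division by gene length in kb (RPKM). Srf was at 360 and 748 CPM in SRF-OE replicates 2 and 3. It was at 67.3 and 85.1 CPM in GFP replicates 2 and 3, but at 338 CPM in the library labelled GFP1. That library goes against its label, so fits were made with all 5 libraries and again without it. The column names may be displaced by 1 place, since the first of the 6 sample names stands over gene lengths. The library labelled GFP1 would then belong to SRF-OE, and the other replicate numbers would also change. This was not tested, no library was regrouped by its values, and group and replicate names are those of the column headers throughout. Xist and Y-linked genes placed replicate 2 of both groups with females and the other 3 libraries with males.

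Cardiomyocyte markers dominated every library. The 10 markers summed to between 96824 and 169740 CPM, and the 38 fibroblast and matrix genes to between 2219 and 3950 CPM. The median level per length was 4943 to 8701 RPKM for the cardiomyocyte markers and 3.81 to 8.71 RPKM for the 38 genes. Some genes that define fibroblasts were scarce: Tcf21 had 9 counts in GFP replicate 3 and Thy1 had 5. Others were less so, such as Dcn and Postn, with means of 22.5 and 15.1 RPKM over the 5 libraries. In such bulk samples fewer cells of a type and less RNA per cell cannot be told apart.

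**Figure D1:**
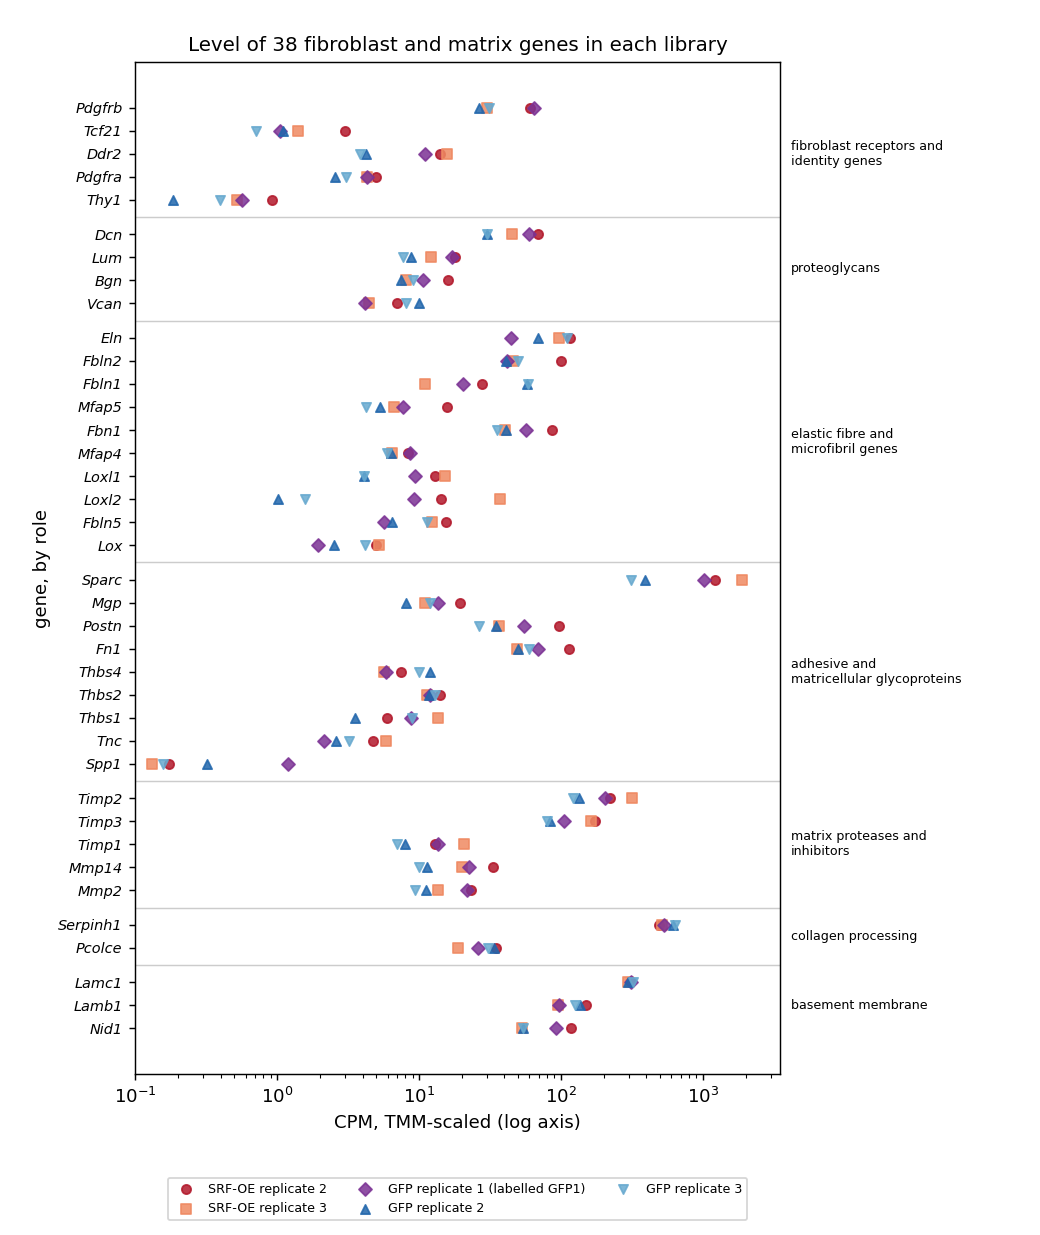
Level of each of the 38 genes in CPM (log axis), grouped by role, with 1 symbol per library. Sparc stands highest and separates both SRF-OE libraries (1226 and 1899 CPM) from GFP replicates 2 and 3 (389 and 313 CPM), while Lamc1 has nearly the same level in all 5 libraries (296 to 321 CPM).

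The levels per length spanned a wide range. Sparc, a secreted glycoprotein that binds collagen, was the highest with a mean of 421 RPKM over the 5 libraries. Serpinh1, the chaperone of procollagen in the endoplasmic reticulum, followed with 229 RPKM. Timp2 had 55.1 RPKM, Lamc1 had 40.2 RPKM, Timp3 had 25.9 RPKM and Eln had 23.2 RPKM. The lowest were Thy1 with 0.299 RPKM and Spp1 with 0.238 RPKM. Spp1 (osteopontin) had 3 counts in SRF-OE replicate 2, also 3 in SRF-OE replicate 3, 25 in the library labelled GFP1, and 7 and 2 in GFP replicates 2 and 3. It did not pass the filter on low counts, and the other 37 genes were tested.

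The question of the comparison was which of these genes changed when SRF was raised in maturing CMs. With the 5 libraries as labelled, 0 of the 37 genes passed an adjusted p of 0.05 in edgeR's quasi-likelihood test, and 0.0% of all 13754 genes tested did in either direction. At an unadjusted p under 0.05, 9 of the 37 were higher in SRF-OE, against 6.35% of all genes tested, and 0 were lower, against 7.59%. The log2 fold change was positive for 31 genes (53.3% of all genes tested) and negative for 6 (46.7%), with a median of 0.51 beside 0.03 for all genes tested. Both SRF-OE libraries lay above all 3 GFP libraries for 11 genes (16.1% of all genes tested) and below them for 1 (17.3%).

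When the library labelled GFP1 was left out, 5 of the 37 genes passed the adjusted threshold as higher in SRF-OE, against 1.98% of the 13397 genes tested, and 0 as lower, against 0.97%. These were Sparc, Loxl2, Loxl1, Timp3 and Ddr2. At an unadjusted p under 0.05, 15 were higher (14.4% of all genes tested) and 2 were lower (14.0%). The log2 fold change was positive for 30 genes (53.2%) and negative for 7 (46.8%), and its median was 0.71, beside 0.04 for all genes tested. SRF-OE lay above GFP replicates 2 and 3 for 20 genes (30.8% of all genes tested) and below them for 4 (30.2%). The count of 5 depended on the libraries used, since 0 passed over the 5 libraries. With a further library left out, the median ranged from 0.41 (without SRF-OE replicate 2) to 0.98 (without SRF-OE replicate 3). The count also changed in those fits of 3 libraries, which leave 1 in a group and assume that it varies like the others.

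Other fits called other numbers. DESeq2 gave an adjusted p to 1167 genes over the 5 libraries and called 1 of the 4 matrix genes among them higher (0.943% of those genes) and 0 lower (18.3%). On 4 libraries, without the one labelled GFP1, it called 10 of the 37 higher (6.29% of 13559 genes) and 1 lower (6.14%). With the replicate number as a block, 8 were higher and 1 lower both over the 5 libraries (4.23% and 3.14% of all genes) and without the library labelled GFP1 (4.08% and 2.93%). The library labelled GFP1 is the only replicate 1, so the block absorbs it. Both fits with a block therefore make nearly the same comparison, and neither shows calls that hold with that library as a control.

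**Figure D2:**
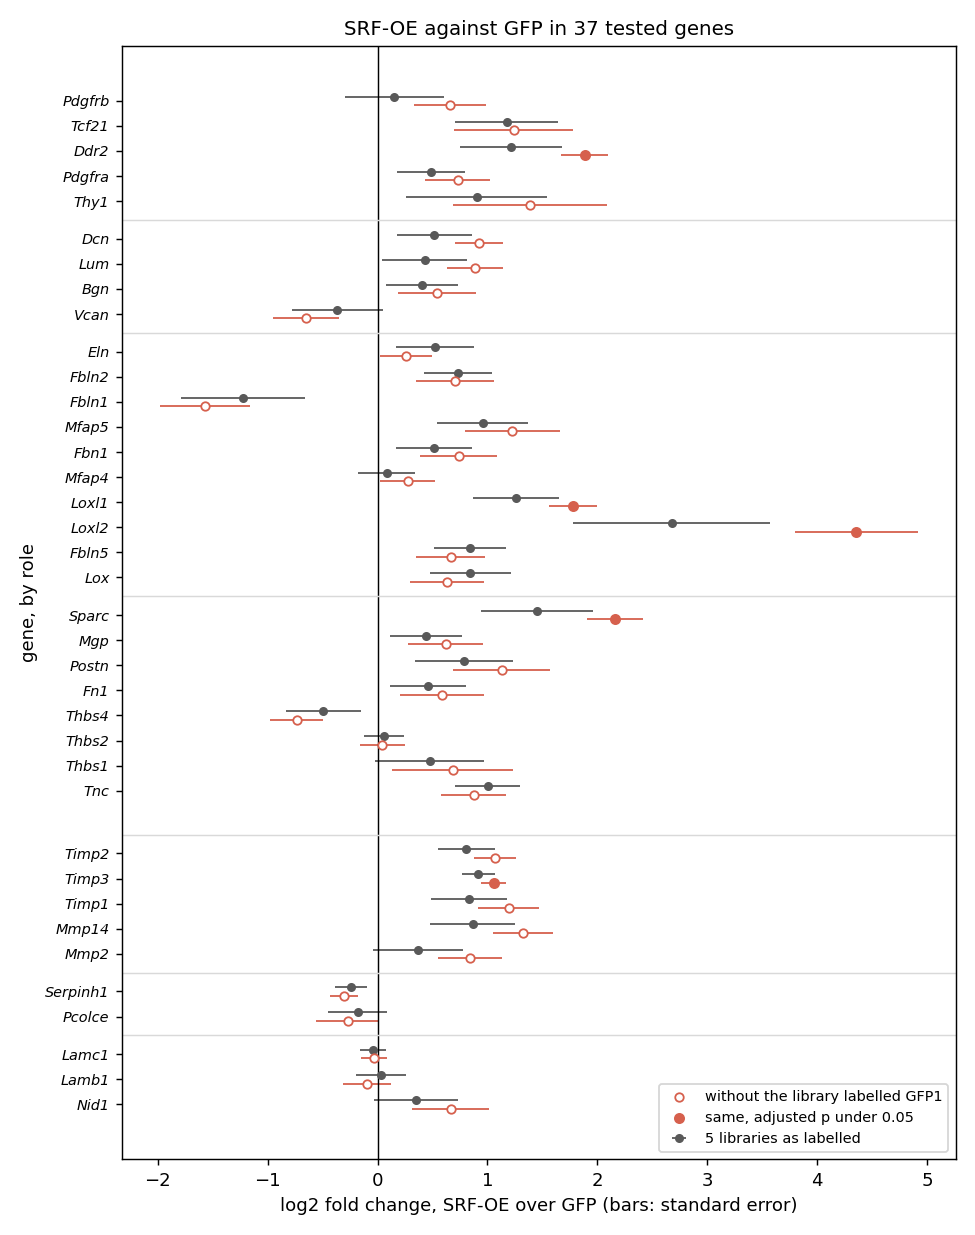
Log2 fold change of SRF-OE over GFP for the 37 tested genes, by role, with standard errors as bars, for the 5 libraries as labelled (grey) and without the library labelled GFP1 (red, filled at an adjusted p under 0.05). The 5 filled points are Ddr2, Loxl1, Loxl2, Sparc and Timp3, and Fbln1 has the lowest value in both fits.

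Sparc spans 55394159 to 55420080 of chromosome 11 (GRCm38). SRF-OE replicates 2 and 3 had 1226 and 1899 CPM of it, the library labelled GFP1 had 1012 CPM, and GFP replicates 2 and 3 had 389 and 313 CPM. Both SRF-OE libraries were above every GFP library, and the library labelled GFP1 was nearer to SRF-OE replicate 2 than to the other GFP libraries. SRF-OE averaged 1563 ± 476 CPM (SD, n = 2) and GFP averaged 571 ± 383 CPM (SD, n = 3), and the log2 fold change was 1.45 (standard error 0.51, edgeR adjusted p = 0.35). Without the library labelled GFP1 it was 2.16 (standard error 0.26, edgeR adjusted p = 0.042), a 4.47-fold difference. Sparc alone made up 1899 of the 3950 CPM that the 38 genes summed to in SRF-OE replicate 3, and 313 of the 2219 CPM in GFP replicate 3.

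The other adhesive and matricellular glycoproteins, which modulate how cells attach to the matrix, did not share this size of difference. Tnc (tenascin C) was at 4.74 and 5.86 CPM in SRF-OE replicates 2 and 3, at 2.14 CPM in the library labelled GFP1, and at 2.61 and 3.24 CPM in GFP replicates 2 and 3, without overlap between the groups. Its log2 fold change was 1.00 (standard error 0.29, unadjusted p = 0.013, edgeR adjusted p = 0.35). Without the library labelled GFP1 it was 0.87 (edgeR adjusted p = 0.13), so here that library did not narrow the difference.

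Postn (periostin) and Fn1 (fibronectin) were highest in SRF-OE replicate 2. Postn had 96.8 CPM there and 36.8 CPM in the other SRF-OE library, beside 54.8 CPM in the library labelled GFP1 and 34.7 and 26.3 CPM in GFP replicates 2 and 3. Fn1 had 115 and 48.7 CPM in SRF-OE replicates 2 and 3, and 49.8 to 69.4 CPM in the GFP libraries. For both genes the groups overlapped, and the log2 fold change changed sign without SRF-OE replicate 2, from 0.79 to -0.08 for Postn and from 0.46 to -0.29 for Fn1. With the library labelled GFP1 left out instead, the values were 1.13 (edgeR adjusted p = 0.16) and 0.59 (edgeR adjusted p = 0.36). Mgp, an inhibitor of calcification, and Thbs2, an antiangiogenic thrombospondin, had log2 fold changes of 0.44 and 0.06, and both also turned negative without SRF-OE replicate 2, at -0.03 and -0.11. They were 0.62 and 0.04 without the library labelled GFP1.

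Thbs1 and Thbs4 encode further thrombospondins. Thbs1 was at 5.95 and 13.5 CPM in SRF-OE replicates 2 and 3 and at 3.53 to 8.92 CPM in the GFP libraries, and its log2 fold change of 0.47 became -0.25 without SRF-OE replicate 3 and 0.68 without the library labelled GFP1. Thbs4 was at 7.52 and 5.68 CPM in SRF-OE, 5.89 CPM in the library labelled GFP1 and 12 and 10.0 CPM in GFP replicates 2 and 3. Its log2 fold change was -0.50 (standard error 0.34, edgeR adjusted p = 0.50), and -0.74 (unadjusted p = 0.024, edgeR adjusted p = 0.12) without the library labelled GFP1. Thbs4 and Fbln1 were the 2 genes lower at an unadjusted p under 0.05 in that fit.

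Among the elastic fibre genes, the largest difference was that of Loxl2, a lysyl oxidase that cross-links collagen and elastin (chromosome 14, 69608692 to 69695834). SRF-OE replicates 2 and 3 had 14.3 and 36.9 CPM of Loxl2. The library labelled GFP1 had 9.22 CPM, but GFP replicates 2 and 3 had only 1.01 and 1.58 CPM. The groups did not overlap, and the 5 libraries stood in the same order for Loxl2 as for Srf. The log2 fold change was 2.68 (standard error 0.90, edgeR adjusted p = 0.35) over the 5 libraries. Without the library labelled GFP1 it was 4.36 (standard error 0.56, edgeR adjusted p = 0.045), a 20.5-fold difference. Exons of Loxl2 overlap those of Gm27177 (antisense) and Mir6950 (same strand), which are not in the count table. Reads from these cannot be told apart from those of Loxl2 here.

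Loxl1, the lysyl oxidase that acts on elastic fibres, was at 13 and 15.2 CPM in SRF-OE replicates 2 and 3, at 9.31 CPM in the library labelled GFP1, and at 4.13 and 4.10 CPM in GFP replicates 2 and 3. The groups did not overlap. The log2 fold change was 1.26 (standard error 0.39, edgeR adjusted p = 0.35) over the 5 libraries and 1.78 (standard error 0.22, edgeR adjusted p = 0.042) without the library labelled GFP1. Lox itself differed less, with 4.97 and 5.25 CPM in SRF-OE and 1.95 to 4.18 CPM in GFP, a log2 fold change of 0.84 (edgeR adjusted p = 0.37). It was lowest in the library labelled GFP1, and without that library its log2 fold change was 0.63 (edgeR adjusted p = 0.28).

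The fibulins differed in direction. Fbln1, which binds fibronectin and laminin, was the lowest of the 37 log2 fold changes. It was at 28.0 and 11 CPM in SRF-OE replicates 2 and 3, at 20.4 CPM in the library labelled GFP1, and at 57.4 and 58.2 CPM in GFP replicates 2 and 3. The library labelled GFP1 lay between the SRF-OE libraries, so the groups overlapped as labelled and not without it. Fbln1 had a log2 fold change of -1.22 (standard error 0.56, edgeR adjusted p = 0.38), and -1.57 (standard error 0.41, edgeR adjusted p = 0.079) without that library.

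Fbln5, needed for elastic fibre assembly, was at 15.6 and 12.3 CPM in SRF-OE and at 5.70, 6.42 and 11.4 CPM in GFP replicates 1, 2 and 3. The groups did not overlap, with a log2 fold change of 0.84 (standard error 0.33, unadjusted p = 0.039, edgeR adjusted p = 0.36), or 0.67 (edgeR adjusted p = 0.23) without the library labelled GFP1. For Fbln2, SRF-OE replicate 2 stood apart with 101 CPM, and the 46.1 CPM of SRF-OE replicate 3 lay inside the GFP range (41.0 to 49.5 CPM). Fbln2 had log2 fold changes of 0.74 over the 5 libraries and 0.71 without the library labelled GFP1.

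Eln (elastin), the core of the elastic fibre and the highest of the group per length, was at 117 and 97.6 CPM in SRF-OE and at 44.2, 69.4 and 111 CPM in GFP replicates 1, 2 and 3. The groups overlapped, and the log2 fold change was 0.52 (edgeR adjusted p = 0.50) over the 5 libraries and 0.26 without the library labelled GFP1. The microfibril genes Fbn1 (fibrillin), Mfap4 and Mfap5 had log2 fold changes of 0.51, 0.08 and 0.96, and their groups overlapped in each case. The values were 0.74, 0.27 and 1.23 without the library labelled GFP1, where Mfap4 and Mfap5 did not overlap. Exons of Mfap4 and of Fn1 overlap those of the antisense genes Mapk7 and Apol7d, whose reads cannot be told apart here. Mfap5 had 15.8 and 6.69 CPM in SRF-OE replicates 2 and 3, beside 4.26 to 7.70 CPM in GFP.

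**Figure D3:**
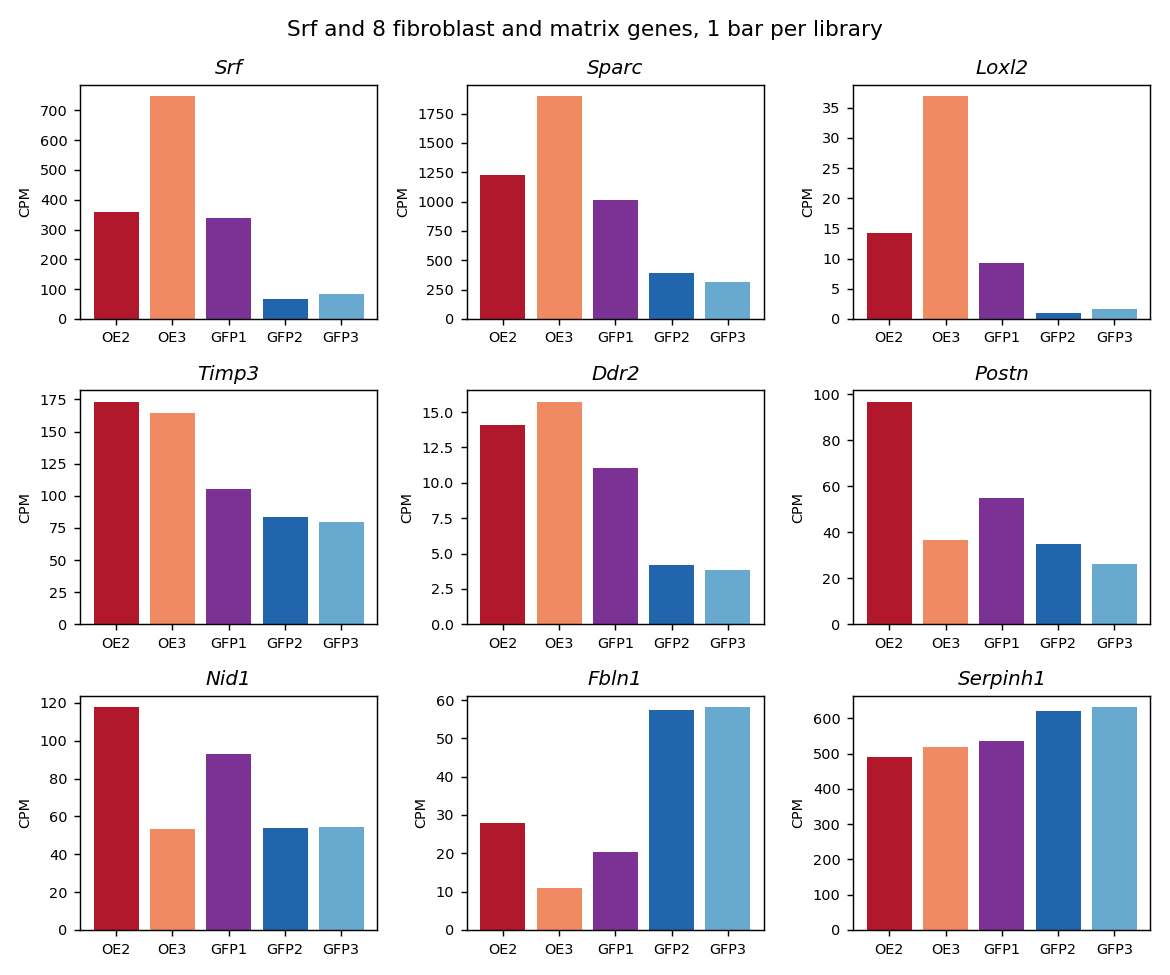
CPM of Srf and 8 of the genes, 1 bar per library (OE2 and OE3 are SRF-OE replicates 2 and 3). Sparc and Loxl2 are highest in SRF-OE replicate 3, as Srf is, while Postn and Nid1 are highest in SRF-OE replicate 2 and near the level of GFP replicates 2 and 3 in SRF-OE replicate 3, and Fbln1 and Serpinh1 are highest in GFP replicates 2 and 3.

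All 5 matrix proteases and inhibitors had positive log2 fold changes, from 0.37 to 0.92 over the 5 libraries. Without the library labelled GFP1 all 5 had an unadjusted p under 0.05 (14.4% of all genes tested were higher at that level) and did not overlap between the groups (30.8% of all genes), and 1, Timp3, passed the adjusted threshold. The upstream sequences of 4 of these genes, from RefSeq on GRCm38.p6, are shown because the group was the only one in which every gene reached that unadjusted level. Mmp2 had no window in the sequence table. Each stretch ends at the gene's start or at the first annotated exon, and runs 5′ to 3′ on the gene's strand, with GGGCGG (either strand) in capitals.
Timp1 (chrX:20869916-20870165, plus strand): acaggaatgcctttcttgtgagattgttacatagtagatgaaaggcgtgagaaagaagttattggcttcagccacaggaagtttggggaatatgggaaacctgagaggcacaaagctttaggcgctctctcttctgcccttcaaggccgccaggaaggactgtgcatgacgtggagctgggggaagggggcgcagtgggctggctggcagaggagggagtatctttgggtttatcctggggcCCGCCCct
Timp2 (chr11:118355507-118355661, minus strand): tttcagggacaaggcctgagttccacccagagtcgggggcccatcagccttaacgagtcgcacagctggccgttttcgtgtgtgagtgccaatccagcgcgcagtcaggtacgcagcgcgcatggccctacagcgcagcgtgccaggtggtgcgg
Timp3 (chr10:86300162-86300371, plus strand): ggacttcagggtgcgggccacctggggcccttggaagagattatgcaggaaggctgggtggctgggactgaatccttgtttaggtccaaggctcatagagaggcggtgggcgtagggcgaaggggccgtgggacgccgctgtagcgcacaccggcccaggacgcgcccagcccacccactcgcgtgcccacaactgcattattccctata
Mmp14 (chr14:54431348-54431597, plus strand): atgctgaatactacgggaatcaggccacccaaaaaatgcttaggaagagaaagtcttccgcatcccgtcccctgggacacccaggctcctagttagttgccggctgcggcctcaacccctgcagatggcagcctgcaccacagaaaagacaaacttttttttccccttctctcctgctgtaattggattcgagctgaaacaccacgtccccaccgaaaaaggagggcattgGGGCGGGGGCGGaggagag

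In these 4 stretches GGGCGG occurred 2 times before Mmp14 and 1 time before Timp1. RefSeq windows of 250 bases before to 50 bases after the start were matched for 23 of the 38 genes (28 windows). The CArG box, the motif that SRF binds, was in 0 of these 28 windows and in 1.63% of all 32851 windows. GGGCGG was in 60.7% of the 28 windows and in 35.7% of all windows, and TATAAA in 21.4% and 13.6%. A window without a motif says only that these letters are not in it.

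Timp3, a tissue inhibitor of metalloproteinases that stays bound to the matrix (chromosome 10, 86300412 to 86349505), had the smallest unadjusted p of the 37 genes in both fits. It was at 173 and 164 CPM in SRF-OE replicates 2 and 3, at 105 CPM in the library labelled GFP1 and at 83.5 and 79.6 CPM in GFP replicates 2 and 3. SRF-OE averaged 169 ± 6.47 CPM (SD, n = 2) and GFP 89.4 ± 13.8 CPM (SD, n = 3), and the gap between the groups exceeded the spread within either. The log2 fold change was 0.92 (standard error 0.15, unadjusted p = 0.00068, edgeR adjusted p = 0.35), and 1.05 (standard error 0.11, edgeR adjusted p = 0.042) without the library labelled GFP1. Across the 5 fits that each left out 1 library it ranged from 0.84 to 1.05.

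Timp2, an inhibitor that also takes part in activating Mmp2, was at 220 and 317 CPM in SRF-OE replicates 2 and 3, at 204 CPM in the library labelled GFP1 and at 135 and 123 CPM in GFP replicates 2 and 3. The groups did not overlap. Its log2 fold change was 0.81 (standard error 0.26, unadjusted p = 0.019, edgeR adjusted p = 0.35), and 1.07 (standard error 0.19, edgeR adjusted p = 0.0502) without the library labelled GFP1. Timp1 was at 13 and 20.9 CPM in SRF-OE and at 13.6, 7.94 and 6.95 CPM in GFP replicates 1, 2 and 3, so that only the library labelled GFP1 overlapped with SRF-OE. Timp1 had a log2 fold change of 0.83 (edgeR adjusted p = 0.36), and 1.19 (edgeR adjusted p = 0.066) without that library.

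Mmp14, the membrane-bound protease that activates Mmp2, was at 33.1 and 20.2 CPM in SRF-OE, at 22.4 CPM in the library labelled GFP1 and at 11.3 and 9.95 CPM in GFP replicates 2 and 3. Mmp14 had a log2 fold change of 0.86 (edgeR adjusted p = 0.37), and 1.32 (standard error 0.27, edgeR adjusted p = 0.056) without the library labelled GFP1. Mmp2, a gelatinase, was at 23.1 and 13.6 CPM in SRF-OE and at 22, 11.1 and 9.31 CPM in GFP, and its log2 fold change was 0.37, or 0.84 (edgeR adjusted p = 0.13) without that library.

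Of the fibroblast receptors and identity genes, Ddr2, the collagen receptor, was called without the library labelled GFP1. Ddr2 lies on chromosome 1, from 169972307 to 170110836. It was at 14.1 and 15.7 CPM in SRF-OE replicates 2 and 3, at 11.1 CPM in the library labelled GFP1 and at 4.22 and 3.87 CPM in GFP replicates 2 and 3, with no overlap. Over the 5 libraries its log2 fold change was 1.21 (standard error 0.46, edgeR adjusted p = 0.36), which did not pass, and without the library labelled GFP1 it was 1.88 (standard error 0.21, edgeR adjusted p = 0.042). An exon of the antisense gene 3110045C21Rik overlaps Ddr2, and without a stated strand setting reads from both cannot be told apart.

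The other 4 genes of this group did not pass in either fit. Tcf21, a transcription factor of cardiac fibroblasts, was at 3.01 and 1.40 CPM in SRF-OE and at 1.05, 1.10 and 0.710 CPM in GFP replicates 1, 2 and 3. This was a log2 fold change of 1.18 (standard error 0.47, unadjusted p = 0.043, edgeR adjusted p = 0.36), and 1.24 (edgeR adjusted p = 0.20) without the library labelled GFP1. Pdgfra, a receptor that marks fibroblasts, was at 4.97 and 4.33 CPM in SRF-OE and at 2.57 to 4.28 CPM in GFP, a log2 fold change of 0.49 (edgeR adjusted p = 0.47), or 0.73 (edgeR adjusted p = 0.18) without the library labelled GFP1. Pdgfrb, the receptor of pericytes and fibroblasts and the highest of the group per length, was at 60.7 and 30.1 CPM in SRF-OE and at 64.5, 26.4 and 31.3 CPM in GFP replicates 1, 2 and 3. Its highest value was in the library labelled GFP1, and its log2 fold change of 0.15 became 0.66 (edgeR adjusted p = 0.25) without it. Thy1, a surface glycoprotein, stayed under 1 CPM in all 5 libraries, with log2 fold changes of 0.90 and 1.38 in these fits.

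Of the small leucine-rich proteoglycans, which bind collagen fibrils, Dcn and Lum had like patterns. Dcn (decorin) was at 69.3 and 45.4 CPM in SRF-OE, 59.3 CPM in the library labelled GFP1 and 30.2 and 30.3 CPM in GFP replicates 2 and 3. This gave a log2 fold change of 0.52 (standard error 0.35, edgeR adjusted p = 0.49), and 0.93 (standard error 0.22, unadjusted p = 0.0058, edgeR adjusted p = 0.068) without that library. Lum (lumican) had log2 fold changes of 0.43 and 0.89 in the 2 fits and Bgn (biglycan) of 0.40 and 0.54. For Bgn the groups overlapped with and without the library labelled GFP1, and its log2 fold change was -0.17 without SRF-OE replicate 2. Vcan (versican), a large proteoglycan of the loose matrix of development, had a negative value, -0.37 over the 5 libraries and -0.65 without the library labelled GFP1, with 7.05 and 4.46 CPM in SRF-OE and 4.18, 10.0 and 8.05 CPM in GFP replicates 1, 2 and 3.

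The collagen processing and basement membrane groups differed least of the role groups by median log2 fold change, -0.21 and 0.03 over the 5 libraries. Serpinh1 was at 491 and 519 CPM in SRF-OE and at 535, 621 and 632 CPM in GFP replicates 1, 2 and 3. It was the only one of the 37 genes with both SRF-OE libraries below all GFP libraries, with a log2 fold change of -0.24 (standard error 0.15, edgeR adjusted p = 0.46), or -0.31 (edgeR adjusted p = 0.19) without the library labelled GFP1. Pcolce, the enhancer of procollagen processing, had log2 fold changes of -0.18 and -0.27 in these fits. Among the basement membrane genes, Lamc1 (a laminin chain) was at 306 and 296 CPM in SRF-OE and at 313, 297 and 321 CPM in GFP. Lamc1 had a log2 fold change of -0.04 (standard error 0.12), and -0.03 without the library labelled GFP1. Lamb1 (another laminin chain) and Nid1 (nidogen, which links laminin to collagen) had 0.03 and 0.35, and both became negative without SRF-OE replicate 2, at -0.32 and -0.34. Without the library labelled GFP1 they had -0.10 and 0.66, so Lamb1 changed sign there too.

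The SRF-OE libraries differed from each other. Of the 37 genes, 27 were higher in SRF-OE replicate 2 and 10 in SRF-OE replicate 3, with a median ratio of replicate 3 to replicate 2 of 0.679, while 49.8% of all genes tested were higher in replicate 2. The 10 genes higher in replicate 3 were Ddr2, Lox, Loxl1, Loxl2, Sparc, Tnc, Thbs1, Timp1, Timp2 and Serpinh1. Among these 10 were 4 of the 5 genes that passed the adjusted threshold, all but Timp3. The median log2 fold change of the 37 genes over the 5 libraries was 0.51, but 0.09 without SRF-OE replicate 2 and 0.79 without SRF-OE replicate 3.

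Markers of other cell types also differed between the libraries. The 14 endothelial markers were high in SRF-OE replicate 2 (a sum of 1328 CPM) and in the library labelled GFP1 (1109 CPM), but summed to 543 CPM in SRF-OE replicate 3, beside 545 and 530 CPM in GFP replicates 2 and 3, and for all 14 the value of SRF-OE replicate 2 exceeded that of SRF-OE replicate 3. The 13 leukocyte markers summed to 57.5 and 26.7 CPM in SRF-OE replicates 2 and 3, 44.1 CPM in the library labelled GFP1 and 22 and 17.1 CPM in GFP replicates 2 and 3. Without the library labelled GFP1, 1 of the 12 tested passed as higher, against 1.98% of all genes. This was Cd74, with a log2 fold change of 2.37 (edgeR adjusted p = 0.048), or 2.34 (edgeR adjusted p = 0.35) over the 5 libraries. Cd74 was at 4.22 and 5.12 CPM in SRF-OE and at 0.95, 1.06 and 0.71 CPM in GFP replicates 1, 2 and 3. The 11 smooth muscle and pericyte markers summed to 1298 and 1108 CPM in SRF-OE, 1166 CPM in the library labelled GFP1 and 1506 and 2088 CPM in the other GFP libraries. Acta2 (smooth muscle actin) gave much of that sum, with 530 and 372 CPM in SRF-OE, 463 CPM in the library labelled GFP1 and 1018 and 1464 CPM in GFP replicates 2 and 3. Most of this list had the other sign: 9 of the 11 log2 fold changes were positive in both fits (53.3% and 53.2% of all genes tested), with medians of 0.72 and 1.10. Without the library labelled GFP1, Tagln (2.92, edgeR adjusted p = 0.047) and Mcam (1.99, edgeR adjusted p = 0.042) passed as higher, against 1.98% of all genes. Acta2 (-1.45, edgeR adjusted p = 0.0499) just passed as lower, against 0.97%. The 12 other fibroblast markers summed to 392 and 342 CPM in SRF-OE, 289 CPM in the library labelled GFP1 and 198 and 152 CPM in GFP replicates 2 and 3. The 10 cardiomyocyte markers summed to 108824 and 96824 CPM in SRF-OE and 115123 CPM in the library labelled GFP1. In GFP replicates 2 and 3 their sums were 149640 and 169740 CPM. None of the markers was at 0 in any library, and the part of these cell types in the results on matrix genes was not tested.

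**Figure D4:**
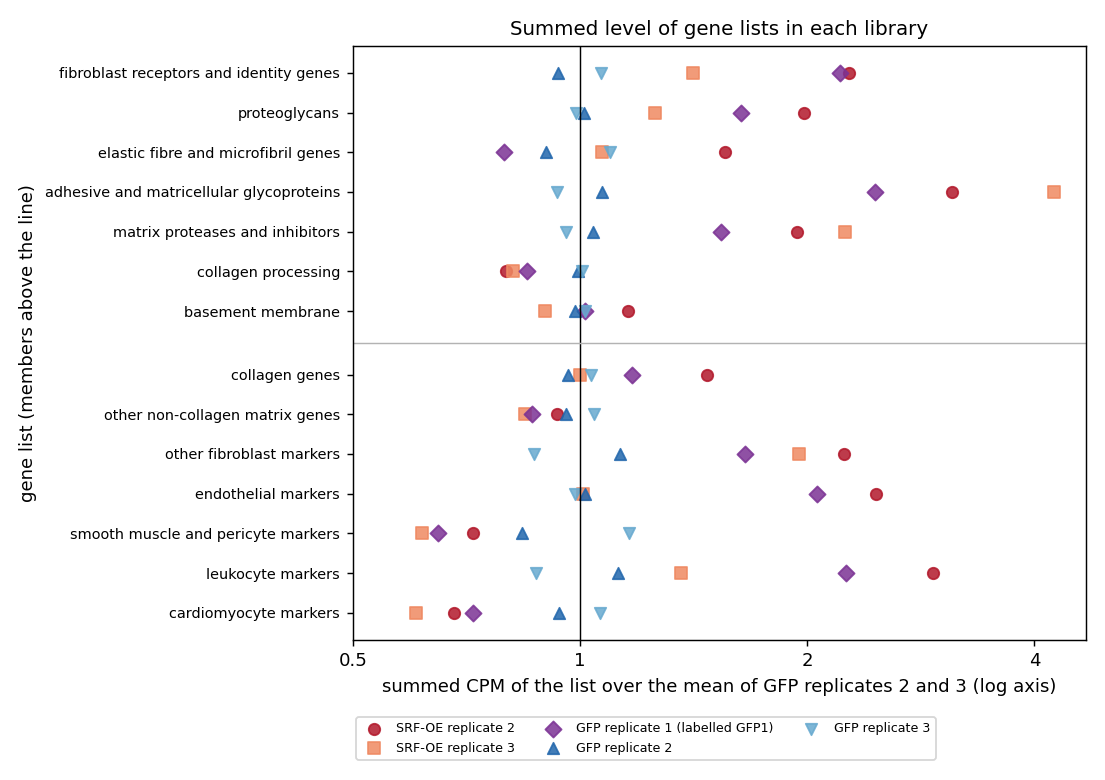
Summed CPM of each gene list, divided by its mean in GFP replicates 2 and 3 (log axis), with 1 symbol per library and the 7 role groups of the 38 genes above the line. The fibroblast receptors and proteoglycans are highest in SRF-OE replicate 2 and the library labelled GFP1, as are the endothelial and leukocyte markers, whereas the glycoproteins, which contain Sparc, and the proteases and inhibitors are highest in SRF-OE replicate 3, at 4.24 and 2.25 times the mean of GFP replicates 2 and 3.

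Other genes of the matrix were described from lists of collagens, further non-collagen matrix genes and further fibroblast markers. Of 17 collagen genes tested, 6 were higher at an unadjusted p under 0.05 over the 5 libraries (6.35% of all genes) and 0 lower (7.59%). When the library labelled GFP1 was left out, 0 passed the adjusted threshold in edgeR without a block and 7 were higher at the unadjusted level (14.4% of all genes). Their median log2 fold change was 0.45 and 0.77 in the 2 fits. Col5a2, a collagen that starts fibrils, had log2 fold changes of 0.88 and 1.05, Col12a1, which associates with fibrils, of 2.43 and 2.61, and Col18a1, of basement membranes, of 0.83 and 1.09. Adjusted p without that library was 0.054, 0.056 and 0.081 in edgeR without a block for these 3 genes. With the replicate block and without that library, 3 of the 17 collagens were called higher (4.08% of all genes) and 0 lower (2.93%). DESeq2 called 6 higher (6.29%) and 0 lower (6.14%) on the same libraries.

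Of 50 further non-collagen matrix genes tested over the 5 libraries, 5 were higher and 4 lower at an unadjusted p under 0.05, beside 6.35% and 7.59% of all genes, so neither count stood far from the background. In edgeR without a block 0 of the 49 tested without the library labelled GFP1 passed the adjusted threshold, and 9 were higher and 9 lower at the unadjusted level (14.4% and 14.0% of all genes). On the same libraries the replicate block called 1 higher and 3 lower (4.08% and 2.93% of all genes). DESeq2 called 2 higher and 7 lower there (6.29% and 6.14%). Ctgf, a matricellular growth factor, was at 188 and 324 CPM in SRF-OE, 180 CPM in the library labelled GFP1 and 105 and 84.5 CPM in GFP replicates 2 and 3, a log2 fold change of 1.06 over the 5 libraries and 1.44 (edgeR adjusted p = 0.053) without the library labelled GFP1. Ogn, a proteoglycan, was at 54.5 and 28.1 CPM in SRF-OE and at 64.5, 122 and 111 CPM in GFP, and Lamb2, a laminin chain, at 559 and 545 CPM in SRF-OE and at 634, 792 and 959 CPM in GFP. Their log2 fold changes were -1.26 and -0.53, and -1.49 (edgeR adjusted p = 0.056) and -0.66 (edgeR adjusted p = 0.067) without that library. The median of this list was 0.26, beside 0.51 for the 37 genes. Of the 12 further fibroblast markers, all 12 had positive log2 fold changes in both fits (53.3% and 53.2% of all genes). With the library labelled GFP1 left out, 2 passed (1.98% of all genes), Vim (vimentin) with 1.53 (edgeR adjusted p = 0.042) and Gsn (gelsolin) with 1.23 (edgeR adjusted p = 0.048), while Islr had 1.20 (edgeR adjusted p = 0.12). Over the 5 libraries Vim, Gsn and Islr had 1.10, 0.78 and 0.59, and 0 of the 12 passed.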

How the data were processed

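RNA-seq of sorted CMs gave 5 libraries, 2 of SRF-OE and 3 of GFP. Per the labels and the methods, reads were aligned to mm10 with STAR 2.5.3a and counted by featureCounts of Subread 1.5.2. The authors deposited raw counts per gene, without normalization, and the settings for strand and multiply mapped reads are not given in the sources used here. The column headed OE1 in the deposited table holds another value, gene length in bp, and was used only for RPKM. Columns were assigned by name, and 0 were left unused. Replicates were separate biological samples per the series' design text.

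Counts were tested in edgeR 4.0.16 (R 4.3.3) with filterByExpr, TMM factors and the quasi-likelihood test, without a block, and p-values were adjusted over all genes tested by the Benjamini-Hochberg method. The standard error is the log2 fold change divided by the square root of F. The fits were tested on simulated counts, which held no library that went against its label. That check therefore does not bear on calls that depend on the library labelled GFP1. The genes and lists were chosen with earlier results of these data known. Values per library are given for genes with an unadjusted p under 0.05 over the 5 libraries. They are also given at an adjusted p under 0.05 without the library labelled GFP1 or in a fit with a block for replicate number. The 2 highest and 2 lowest log2 fold changes, and the highest gene per length of each role, have them too. Values of the remaining genes were added after they were seen. From the lists of collagens, further matrix genes and further fibroblast markers, up to 3 genes are named by smallest p without the library labelled GFP1. Some of these have log2 fold changes only. From the lists of other cell types, only genes that passed the adjusted threshold in that fit are named. Medag and Adgre1 were matched through older symbols. The alternatives were DESeq2 1.42.0, its size factors in edgeR, no filter, a minimum of 10 counts per library, a block for replicate number, and each library left out. Gene positions and sequences are from RefSeq on GRCm38.p6, and overlaps of exons from GENCODE on GRCm38.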

Additional observations from a re-analysis of the deposited data

How the results depend on the processing

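Of the 37 genes, the number higher over the 5 libraries went from 0 to 1 (Timp2) with DESeq2, whose filter gave 4 of them an adjusted p, and ranged from 0 to 5 with 1 library left out. Deviations from the group means of same-numbered libraries correlated at 0.372 for number 2 and -0.060 for number 3 across genes. This cannot decide whether libraries were paired. The deviations of the 2 SRF-OE libraries mirror each other, and replicate 2 was female in both groups. With the replicate number as a block, 8 were higher and 1 (Fbln1) lower, but the block absorbs the library labelled GFP1, the only replicate 1. From the 5 higher and 0 lower without the library labelled GFP1, DESeq2 gave 10 and 1, and the replicate block 8 and 1. Without a filter 18 were higher and 2 lower, but the share of all genes called there was not computed. In that fit edgeR's adjusted p of Fbln1 was 5.0e-14, beside 0.079 with the filter, at log2 fold changes of -1.59 and -1.57. Leaving out a further library, chosen after seeing the data, gave from 0 to 20 higher and from 0 to 5 lower, and where 1 library was left in a group it was assumed to vary like the others. The cause was not tested.

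The median log2 fold change over the 5 libraries ranged from 0.092 to 0.79 with 1 library left out, and Lamb1 was at -0.13 with the block. The genes whose sign changed with 1 library left out ranged from -0.44 to 0.66 (Pdgfrb), -0.17 to 0.81 (Bgn), -0.14 to 0.95 (Fbn1), -0.11 to 0.27 (Mfap4), -0.29 to 0.94 (Fn1), -0.076 to 1.31 (Postn), -0.25 to 0.94 (Thbs1), -0.11 to 0.20 (Thbs2), -0.033 to 0.79 (Mgp), -0.059 to 0.84 (Mmp2), -0.68 to 0.19 (Pcolce), -0.34 to 0.80 (Nid1) and -0.32 to 0.31 (Lamb1). Without the library labelled GFP1 and a further one, Eln ranged from -0.061 to 0.61 and Lamc1 from -0.11 to 0.0069. With DESeq2's size factors 6 genes were higher without the library labelled GFP1, and with at least 10 counts in every library 4 were. The share of all genes called in these fits was not computed.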
